A study of Mus musculus and synthetic construct with 30 samples.

Results

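The replication-dependent histone genes are small, mostly intronless and clustered genes, taken here as those whose symbols begin with Hist1h, Hist2h, Hist3h or Hist4h in the mouse gene tables of a study of the lincRNA gene Peril. Of the 26759 genes listed in each table, 68 had such a symbol: 6 for the linker histone H1, 19 for H2A, 18 for H2B, 12 for H3 and 13 for H4. The symbol alone chose them. By the digit in the symbol, 55 of the 68 genes belonged to cluster 1 on chromosome 13, 10 to cluster 2 on chromosome 3 and 2 to cluster 3 on chromosome 11. Hist4h4 was on chromosome 6. Hist1h2al, counted in cluster 1, lay apart from the rest at chr13:51202727-51203065.

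Core histones H2A, H2B, H3 and H4 form the protein spool of the nucleosome, and H1 binds the DNA that enters and leaves it. Genes of this family are transcribed in S phase, when newly copied DNA has to be packaged, and their mRNAs typically end in a short stem-loop held by the stem-loop binding protein SLBP instead of a poly(A) tail. The U7 snRNP directs the cut that makes this end. Some of the genes can also give polyadenylated mRNA, which is known in particular from cells that have left the cell cycle. Libraries made by poly(A) selection, as here, therefore do not measure all of the histone mRNA of a cell.

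The study deleted Peril, a lincRNA gene, by putting LacZ in place of its body while its promoter was kept (strain Periltm1.1Vlcg, without Neo), on a mixed C57BL/6J and 129S6 background. RNA was sequenced from 16 libraries: mouse embryonic stem cells (mESC; 3 WT and 3 KO, all male), kidney of embryos at E14.5 (3 WT, of which 2 were male, and 3 KO, of which 1 was male; litter 43) and ganglionic eminence with olfactory bulb at E14.5 (GE/OB; 2 WT, both male, and 2 KO, both female; litter 46). The mESC of each genotype were wells of 1 clone, taken at different passages and grown on feeder fibroblasts, so genotype cannot be told apart from clone and passage there, nor from sex in GE/OB. Tissue cannot be told apart from litter. Nor can mESC be told apart from RNA input, which per the study's methods was the same for kidney and GE/OB. P-values measure the spread between these libraries, which for mESC is the spread between wells.

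Total expected counts ranged from 17544707 to 45924887 a library, and replicates differed by more than sampling noise. Peril was at 0.33 to 0.57 transcripts per 1000000 (TPM) in WT mESC, 0.16 to 0.24 TPM in KO mESC and 0 TPM in both tissues. LacZ was at 0 to 0.1 TPM in WT and 44.43 to 73.67 TPM in KO libraries of mESC and GE/OB, but at 0.08 to 0.47 TPM in kidney of both genotypes, so it did not check the kidney labels. Each tissue had its own markers: 8 pluripotency genes summed to 8631 TPM or more in mESC and at most 32.43 TPM elsewhere, 8 embryonic kidney genes to 421 TPM or more in kidney and at most 7.99 TPM elsewhere, and 8 genes of GABAergic forebrain precursors to 1252 TPM or more in GE/OB and at most 5.55 TPM elsewhere. Red cell genes (8) summed to 4712 to 12716 TPM in kidney, 2574 to 2733 TPM in GE/OB and at most 2.31 TPM in mESC; their part in the results was not tested.

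The genomic sequence after the stop codon held the letters of a stem-loop in most members. A hairpin with a 6-base stem and a 4-base loop beginning TTT was searched for in the 200 bases after the stop codon of the 66 members with a stop codon in GENCODE vM21 (GRCm38/mm10), and 61 members held one, 21 to 58 bases after the stop codon (median 30). Of 21752 protein-coding genes searched in the same way, these members among them, 142 (0.653%) held it. These 61 hairpins came in 6 versions. One gene is shown for each, because the versions of the H4 genes differed from those of the other classes, with the 16 bases of the hairpin in capitals, 5 bases of flank on each side, read 5′ to 3′ on the gene's strand in DNA letters:
Hist3h2ba (H2B): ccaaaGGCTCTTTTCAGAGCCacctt
Hist1h2bk (H2B): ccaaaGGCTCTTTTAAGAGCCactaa
Hist1h4d (H4): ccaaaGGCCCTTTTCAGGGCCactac
Hist1h4i (H4): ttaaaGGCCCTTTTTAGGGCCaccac
Hist1h4b (H4): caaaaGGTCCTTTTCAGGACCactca
Hist2h2ac (H2A): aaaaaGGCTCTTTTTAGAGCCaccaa

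The hairpin of Hist3h2ba (plus strand) occupies chr11:58949349-58949364, that of Hist1h2bk (plus) chr13:22036300-22036315, that of Hist1h4d (plus) chr13:23581950-23581965, that of Hist1h4i (minus) chr13:22040966-22040981, that of Hist1h4b (plus) chr13:23757366-23757381 and that of Hist2h2ac (minus) chr3:96220418-96220433. The version of Hist3h2ba was the common one, in 39 members. The version of Hist1h2bk was in 9 members, that of Hist1h4d in 8, all of them H4 genes, that of Hist1h4i in 2 (with Hist2h4), that of Hist1h4b in 2 and that of Hist2h2ac in 1. No match was found for 5 members (Hist1h4a, Hist1h3g, Hist2h2be, Hist1h2bp and Hist1h2an), which says only that these letters, with perfect pairing, were not in the window.

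Promoters were read for the 60 members matched in the RefSeq promoter table (GRCm38), as 250 bases before to 50 bases after the gene start. A CCAAT box (letters CCAAT, either strand) was in 51 of 60, that is 85%, against 37.9% of all 27025 promoters, and in every matched H1, H2A, H2B and H3 promoter but only 3 of 12 H4 promoters. The letters TATAAA or TATATA were in 40 of 60 (66.7%, against 17.8% of all promoters). The octamer ATTTGCAT, known from H2B promoters as the site of POU2F1, was in 13 of 60 (21.7%, against 1.75%), 7 of them H2A and 6 H2B genes. H2A and H2B genes often lie head to head, so these windows can share bases. The match is a description of letters and not of binding.

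The histone mRNA in these libraries was least in mESC, for which the 68 genes together took 271 to 823 counts a library, or 15.4 to 20.3 counts per 1000000 (CPM). Kidney libraries held 107.1 to 138.7 and GE/OB libraries 173.2 to 215.9 histone CPM. Summed over all 68 genes, the level was 64.9 TPM in mESC, 281.7 TPM in kidney and 512.6 TPM in GE/OB. These are bulk samples, in which fewer cells of a type and less RNA per cell cannot be told apart.

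The classes did not share this order. Averaged over both genotypes, H2B was the highest class in every tissue, at 21.2 ± 4.04 TPM (SD, n = 6) in mESC, 128.1 ± 10.5 TPM (n = 6) in kidney and 348.1 ± 46.9 TPM (n = 4) in GE/OB. In mESC its range overlapped that of H4, which was the higher of the 2 in KO mESC (18.6 against 18.2 TPM). H2A followed the same order of tissues, at 11.7 ± 1.97, 48.3 ± 8.12 and 103.1 ± 8.69 TPM. The other classes were highest in kidney. H4 was at 19.6 ± 1.54 TPM in mESC, 72.5 ± 9.49 TPM in kidney and 43.9 ± 9.88 TPM in GE/OB. H1 stood at 3.25 ± 0.712, 12.6 ± 1.16 and 9.17 ± 1.73 TPM. H3 stood at 9.11 ± 1.23, 20.2 ± 2.76 and 8.40 ± 1.5 TPM, and its mESC and GE/OB libraries overlapped. Nucleosomes hold the core histone proteins in equal amounts, which poly(A)-selected mRNA need not follow. Shares are given of the summed TPM of these 68 genes, called histone TPM here. It leaves out the replication-independent histone genes described below. H3 gave 14.0% of it in mESC, 7.2% in kidney and 1.6% in GE/OB, while H2B gave 32.6%, 45.5% and 67.9%.

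**Figure D1:**
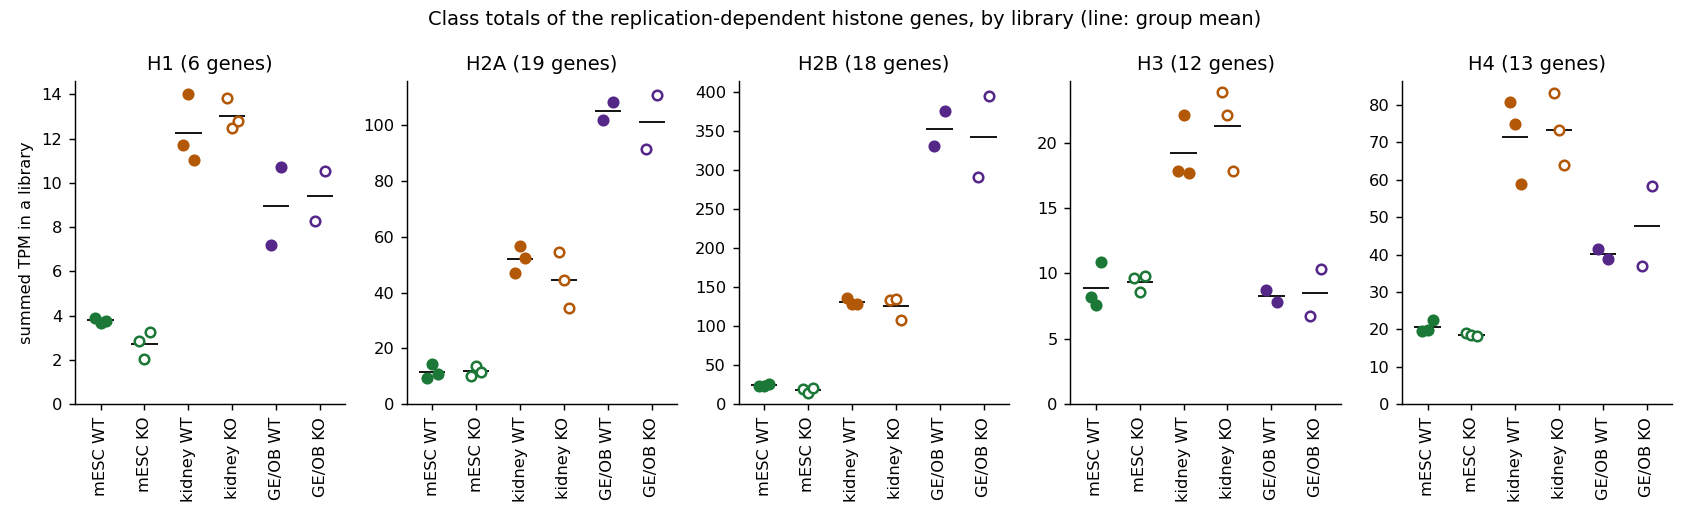
Summed TPM of each histone class (vertical axes, 1 panel a class, each with its own scale) in the 16 libraries, by tissue and genotype. Filled points are WT, open points KO and lines group means. H2A and H2B are highest in GE/OB (H2B 290.6 to 395.1 TPM), H1, H3 and H4 in kidney (H4 58.9 to 83.2 TPM).

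The GE/OB totals came mostly from a pair of neighbouring genes in cluster 3. Hist3h2ba, an H2B gene (chromosome 11, 58948920 to 58949533), was at 274.1 and 315.8 TPM in the GE/OB WT libraries and 244.2 and 329.1 TPM in the KO libraries. In kidney it was at 52.39, 43 and 50.21 TPM in WT and 50.73, 49.23 and 33.4 TPM in KO. In mESC it stayed between 0.4 and 1.2 TPM in all 6 libraries. The 3 tissues therefore did not overlap for this gene. Hist3h2a, its H2A neighbour (chromosome 11, 58954685 to 58956830), was at 81.36 to 88.7 TPM in GE/OB, 15.28 to 19.03 TPM in kidney and 0.5 to 0.85 TPM in mESC, again with no overlap. Together the pair gave 73.3% of all histone TPM in GE/OB, 22.7% in kidney and 2.2% in mESC.

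The order of kidney and GE/OB in H2A and H2B rested on these 2 genes. With Hist3h2a left out the H2A total in GE/OB was 0.584 times that in kidney, and with Hist3h2ba left out the H2B total was 0.702 times that in kidney. Hist3h2a made up 82.5% of H2A TPM and Hist3h2ba 83.5% of H2B TPM in GE/OB. In H4 the order of tissues stayed without its leading gene, at 8.67 TPM in mESC, 24.0 TPM in kidney and 11.6 TPM in GE/OB.

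Each of the other classes also had a leading gene. Hist1h4i led H4 in all 3 tissues, with 55.8% of H4 TPM in mESC, 66.9% in kidney and 73.5% in GE/OB. Its TPM was 8.93, 11.08 and 11.82 in mESC WT and 12.49, 10.81 and 10.57 in KO. In kidney it was 54.01, 46.15 and 35.69 in WT and 61.98, 52.51 and 40.62 in KO. In GE/OB it was 29.48 and 29.52 in WT and 25.02 and 45.0 in KO, so that GE/OB KO 7 reached into the kidney range. Hist1h1c led H1 with 54.1%, 77.2% and 85.9% of its TPM, and ranged from 1.18 to 2.11 TPM in mESC, 9.22 to 10.79 TPM in kidney and 6.45 to 9.54 TPM in GE/OB. In H3 no gene held over 31.1% of the total, and the leading gene was Hist1h3c in mESC (2.12 to 3.64 TPM) and kidney (4.96 to 6.93 TPM) but Hist2h3c2 in GE/OB (2.05 to 3.0 TPM).

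Among the H2B genes, Hist1h2bc was widespread, at 4.07 to 7.09 TPM in mESC, 29.72 to 36.89 TPM in kidney and 18.58 to 30.23 TPM in GE/OB. Hist2h2be, an H2B gene of cluster 2, was nearly absent from mESC, at 0.23 to 0.48 TPM, and lay at 10.35 to 13.55 TPM in kidney and 18.13 to 20.75 TPM in GE/OB. Hist1h2bk varied least over libraries among the members with a mean of at least 1 TPM (coefficient of variation 43.4%), and Hist2h2aa1 varied most (143.8%). Hist2h2aa1 was at 0 TPM in all 6 mESC libraries and at 4.76 to 11.17 TPM in GE/OB. Its counts were split with those of its partner Hist2h2aa2: summed, the 2 genes were at 0.24 to 1.35 TPM in mESC, 0.53 to 3.6 TPM in kidney and 5.21 to 11.17 TPM in GE/OB.

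**Figure D2:**
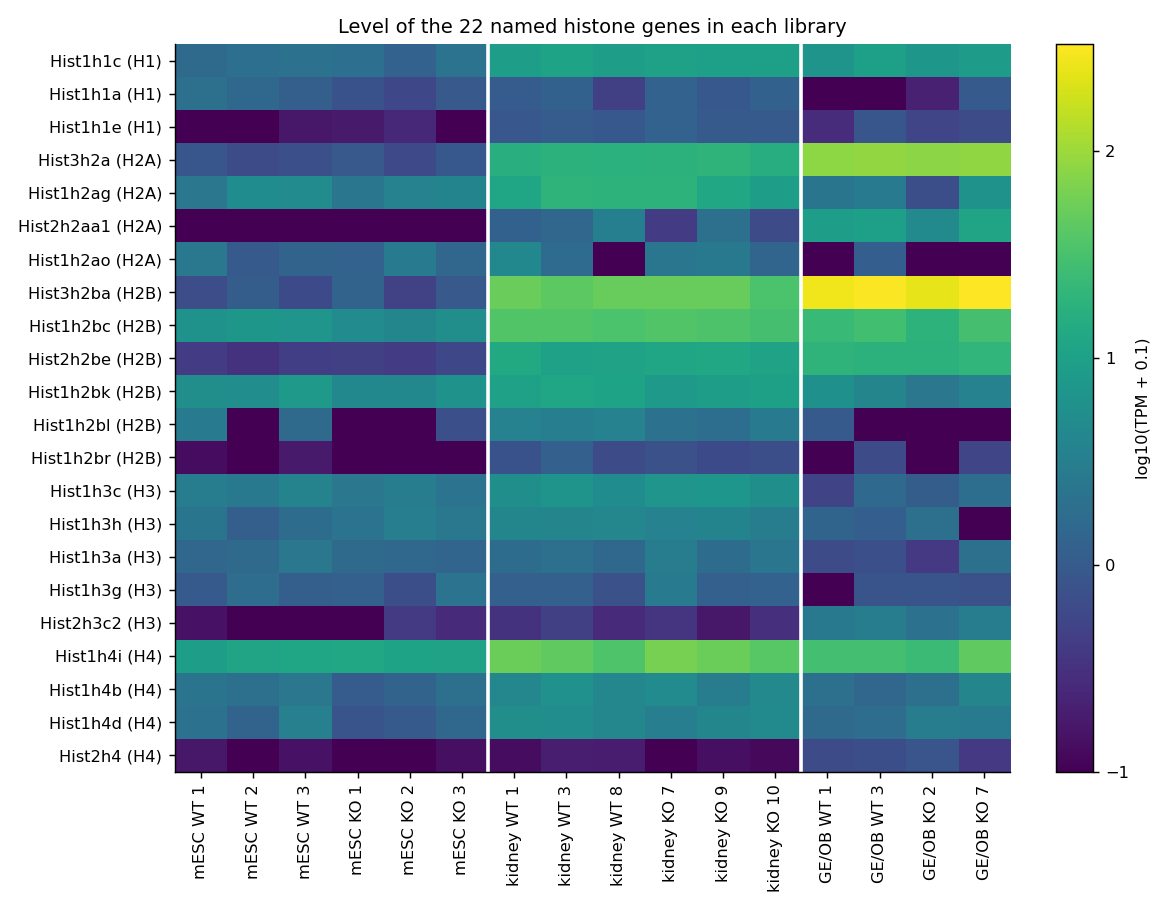
Level of 22 histone genes (rows, class in brackets) in the 16 libraries (columns), as log10(TPM + 0.1) on a colour scale, with white lines between tissues. Hist3h2ba reaches 329.1 TPM in GE/OB and at most 1.2 TPM in mESC, while Hist1h4i is at 8.93 TPM or more in every library.

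Most of the other members were scarce. A mean of at least 1 TPM was reached by 17 of the 68 genes in mESC, 37 in kidney and 22 in GE/OB, and over the 6 groups by 26 genes, of which 5 reached 10 TPM. Only 22 genes had counts in all 16 libraries, and Hist1h2aa and Hist1h2ba, the testis-type H2A and H2B genes, had none in any. For 59 genes the expected count was not whole (within 0.005) in at least 1 library, which is how RSEM, the counting program, records reads divided between near-identical genes. The split between such paralogs is uncertain, and class totals do not depend on it where the paralogs belong to 1 class. Hist3h2ba and Hist2h2be had whole counts in every library.

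Annotated mRNA ends divided the family into a longer and a shorter set. Of the 61 genes with the hairpin, 28 had an annotated mRNA that ran over 50 genomic bases past it, and 33 ended within 50 bases of it or before it, 15 of these before the hairpin's end. A poly(A) signal (AATAAA or ATTAAA in the last 40 bases) was in 12 of the 28 longer mRNAs and 1 of the 33 shorter ones. Several of the shorter models, such as those of Hist1h1b and Hist1h4k, were annotated only to the stop codon. Their last 40 bases were coding sequence, so the 2 sets were not searched alike. The 28 genes gave 45.7% of histone TPM in mESC, 66.5% in kidney and 89.4% in GE/OB, and the 33 gave 49.0%, 27.5% and 6.5%. Within the 28, Hist3h2ba and Hist3h2a alone gave 2.2%, 22.7% and 73.3%. The rise of the longer set from kidney to GE/OB therefore rested on this pair. Hist3h2ba, Hist3h2a, Hist1h4i, Hist1h2bc and Hist1h1c were among the 28, while Hist1h2ag, which led H2A in mESC, was among the 33 and Hist2h2be had no hairpin match. The median level was lower in the longer set in mESC and kidney and higher in GE/OB: 0.248 TPM for the longer and 0.688 TPM for the shorter in mESC, 1.02 and 1.39 TPM in kidney, and 0.759 and 0.455 TPM in GE/OB. The length of the model also enters the TPM, and the length used in the gene tables was within 10% of the vM21 transcript for 47 of 66 members.

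**Figure D3:**
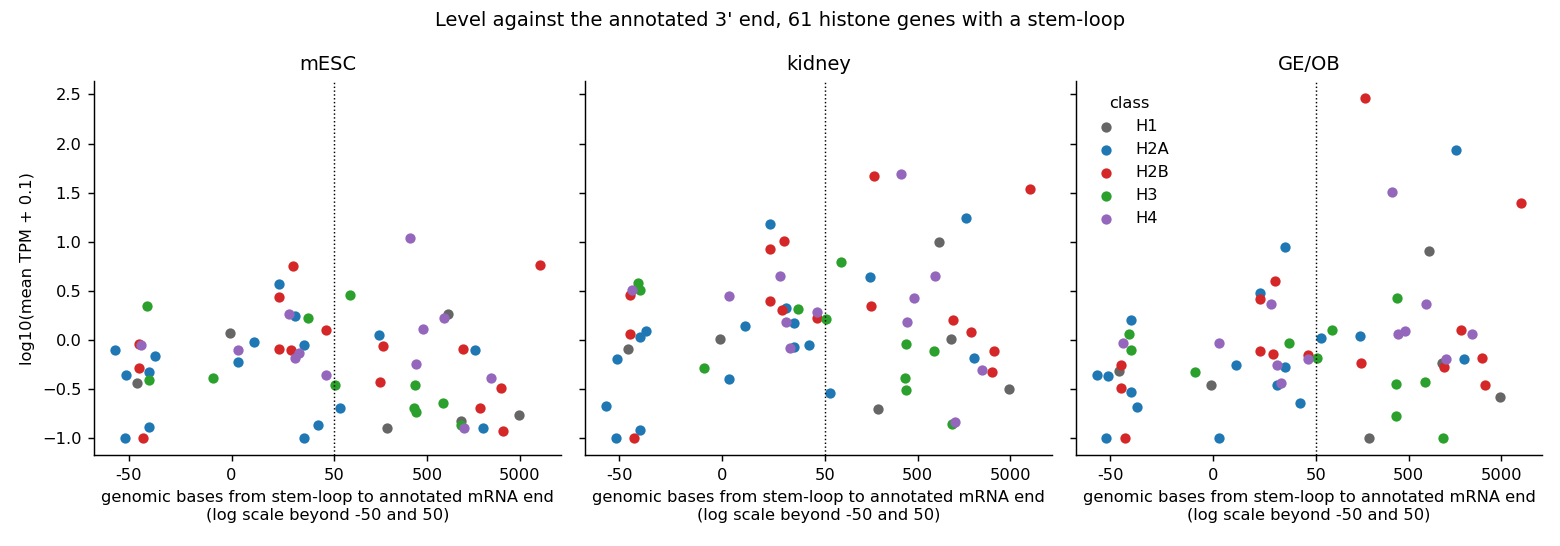
Mean level in each tissue (vertical axis, log10(TPM + 0.1)) against the genomic distance from the hairpin to the annotated mRNA end (horizontal axis, log scale beyond 50 bases on either side of 0), 1 point for each of 61 genes, coloured by class. The highest points of GE/OB lie right of the dotted line at 50 bases, where the genes gave 89.4% of histone TPM. Hist3h2ba and Hist3h2a alone gave 73.3%.

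Tissues were next compared gene by gene with edgeR's quasi-likelihood test on expected counts, scaled by trimmed mean of M values (TMM), with Benjamini-Hochberg adjustment over all 17459 genes tested. Enough counts for the test were found for 48 of the 68 members: 5 H1, 12 H2A, 13 H2B, 9 H3 and 9 H4 genes. A gene could pass through the tissue where it is high, so the counts below describe those 48 genes and not the family.

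Between mESC and kidney, 36 of 48 histone genes differed, and all 36 were lower in mESC. Of all genes, 88.3% differed, 46.3% lower and 42% higher in mESC. The split of the members was one-sided, but a gene that passed the filter through kidney or GE/OB alone could hardly come out higher in mESC. The median difference of the members was -1.65 on the log2 scale, against -0.10 for all genes. Hist3h2ba was lower in mESC by -5.80 ± 0.20 (log2 fold change ± SE, adjusted p = 2.94e-14), Hist2h2be by -5.00 ± 0.12 (adjusted p = 1.73e-16), Hist3h2a by -4.57 ± 0.10 (adjusted p = 7.76e-17), Hist1h2bc by -2.54 ± 0.12 (adjusted p = 1.06e-12) and Hist1h4i by -2.07 ± 0.16 (adjusted p = 1.07e-09). Hist1h2br, at most 0.08 TPM in mESC and 0.52 to 1.08 TPM in kidney, differed by -5.09 ± 0.85 (adjusted p = 5.05e-05). Its counts were not whole in 10 libraries and were 0 in the other 6, so this fold can depend on how reads were divided. Hist1h2bq, with the same hairpin and flanks, differed by -0.69 ± 0.53 (adjusted p = 0.224). Whether the 2 genes share reads was not tested. Hist2h2aa1 had no counts in mESC, but its reads were divided with those of Hist2h2aa2, so no fold is given for it. Summed, this pair was at 0.24 to 1.35 TPM in mESC and 0.53 to 3.6 TPM in kidney, which overlap.

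Between kidney and GE/OB, 43 of 48 histone genes differed (84.7% of all genes), 37 higher and 6 lower in kidney (43.7% and 41% of all genes). The direction of the called genes followed the cluster: of the 40 tested genes of cluster 1, 37 were called higher in kidney and 0 lower. Of the 8 tested genes of clusters 2, 3 and 4, 0 were called higher and 6 lower. This division was noticed after the values were seen. The 6 genes lower in kidney were Hist3h2ba (-2.04 ± 0.12, adjusted p = 3.96e-11), Hist3h2a (-1.69 ± 0.07, adjusted p = 7.03e-13), Hist2h3c2 (-3.02 ± 0.39, adjusted p = 1.51e-06), Hist2h4 (-3.002 ± 0.54, adjusted p = 6.54e-05), Hist4h4 (-0.82, adjusted p = 0.0169) and Hist2h2aa1, with values on the log2 scale. No fold is given for Hist2h2aa1, whose reads were divided with those of Hist2h2aa2. Summed, these 2 genes were at 0.53 to 3.6 TPM in kidney and 5.21 to 11.17 TPM in GE/OB. Alone, Hist2h2aa2 went the other way, by 1.29 on the log2 scale (adjusted p = 0.337).

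Higher in kidney than in GE/OB were, on the same scale, Hist1h2ag (3.02 ± 0.41, adjusted p = 3.29e-06), Hist1h3c (3.01 ± 0.27, adjusted p = 1.43e-08), Hist1h2bk (2.02 ± 0.22, adjusted p = 1.94e-07), Hist1h4i (1.21 ± 0.17, adjusted p = 3.93e-06), Hist1h2bc (1.09 ± 0.12, adjusted p = 2.18e-07) and Hist1h1c (0.92 ± 0.13, adjusted p = 5.85e-06). Genes with few counts in GE/OB had wide intervals. Hist1h2ao had 89 counts in kidney and 3 in GE/OB, a ratio of 14.2 (95% counting interval 4.70 to 70.1), and Hist1h2bl had 73 and 2, a ratio of 17.5 (4.66 to 147).

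**Figure D4:**
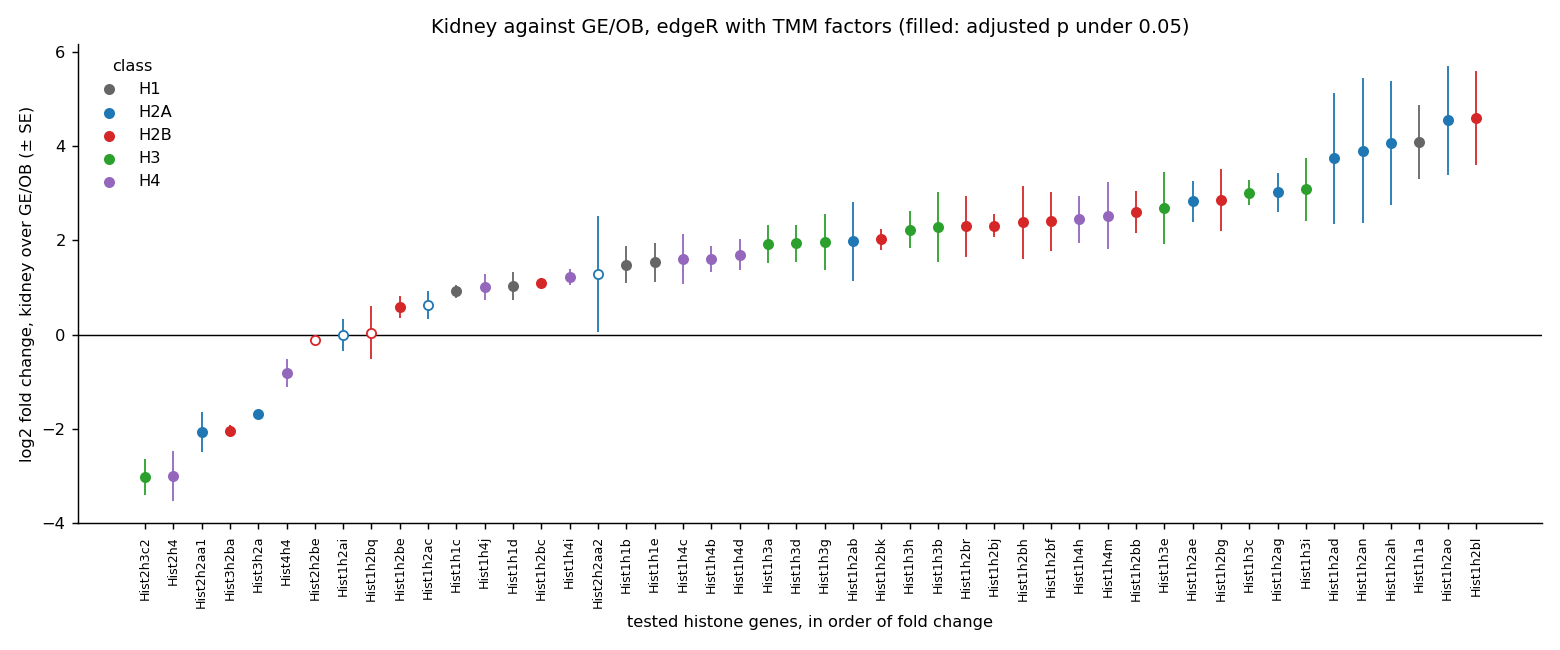
Kidney against GE/OB for the tested histone genes, in order of their log2 fold change (vertical axis, TMM scale, bars are ± SE, colour is the class), filled where the adjusted p was under 0.05. The 37 genes called higher in kidney, with symbols starting Hist1, stand to the right, and the 6 called lower, with symbols starting Hist2, Hist3 or Hist4, to the left.

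The comparison with GE/OB depends on the scale. When libraries were scaled as in TPM, an alternative chosen after seeing the data, the log2 differences against GE/OB moved by -0.65 for mESC and -0.60 for kidney at the median of all genes. Then 29 members were higher and 7 lower in kidney than in GE/OB, against 26.5% and 59.1% of all genes. The called genes again divided by cluster (29 of 40 tested genes of cluster 1 higher and 0 lower, 0 of 8 others higher and 7 lower). Genes not called did not all follow it: on the TPM scale Hist2h2aa2 was at 0.73 (adjusted p = 0.608) and Hist1h2ai at -0.60 (adjusted p = 0.114). The added gene was Hist2h2be, which differed by -0.72 (adjusted p = 1.37e-06) on that scale and by -0.12 (adjusted p = 0.221) on the TMM scale. Hist3h2ba differed by -2.64 on the TPM scale.

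Between mESC and GE/OB, 23 of 48 histone genes differed (88.7% of all genes), 9 higher and 14 lower in mESC (42.6% and 46.1% of all genes), or 6 and 18 on the TPM scale (29.6% and 59.9% of all genes). Hist3h2ba was lower in mESC by -7.84 ± 0.19 (adjusted p = 1.92e-16) and Hist3h2a by -6.26 ± 0.10 (adjusted p = 1.18e-18) on the log2 scale. Of the genes of clusters 2, 3 and 4, 7 of 8 were lower in mESC and 0 higher. The 9 genes higher in mESC were all of cluster 1, and included Hist1h1a (4.23 ± 0.78, adjusted p = 0.000101), Hist1h3g (2.06 ± 0.59, adjusted p = 0.00359), Hist1h3c (1.91 ± 0.29, adjusted p = 9.33e-06), Hist1h3a (1.72 ± 0.42, adjusted p = 0.00113) and Hist1h2bk (1.24 ± 0.23, adjusted p = 8.50e-05).

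Genes of S phase did not share the low level of the histone genes in mESC. Of 27 genes of DNA replication and S phase, 19 were higher and 4 lower in mESC than in kidney, 25 higher and 1 lower in mESC than in GE/OB, and 24 higher and 0 lower in kidney than in GE/OB. On the TPM scale the last 2 splits were 21 and 4, and 16 and 6. Of 22 tested genes that transcribe, cleave, bind or degrade histone mRNA, 15 were higher and 4 lower in mESC than in kidney, 17 and 4 in mESC than in GE/OB, and 8 and 8 in kidney than in GE/OB. On the TPM scale the direction turned for mESC against GE/OB, to 7 higher and 14 lower in mESC. For kidney against GE/OB the even split became 2 higher and 20 lower in kidney. Slbp, the stem-loop binding protein, was at 111.1 to 119.4 TPM in mESC, 92.18 to 110.2 TPM in kidney and 88.54 to 110.9 TPM in GE/OB. Lsm11, a protein of the U7 snRNP, was at 2.59 to 3.13, 4.2 to 5.39 and 16.81 to 20.88 TPM. Zfp473, which joins the U7 snRNP on histone pre-mRNA, was at 15.55 to 18.04, 1.65 to 2.10 and 0.84 to 1.62 TPM. These 3 were picked after their values were seen.

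The genes listed as replication-independent histones, whose mRNAs typically carry poly(A) tails, gave much higher levels. Of these, 11 summed to 4996 to 5169 TPM in mESC, 6682 to 7525 TPM in kidney and 7112 to 8006 TPM in GE/OB. Among the 11, 3 were higher and 6 lower in mESC than in kidney, 4 and 7 in mESC than in GE/OB, and 4 and 5 in kidney than in GE/OB (2 and 8 on the TPM scale). Of 17 histone chaperones, 12 were higher and 4 lower in mESC than in kidney, 12 and 3 in mESC than in GE/OB, and 10 and 3 in kidney than in GE/OB, where the TPM scale gave 8 and 8, and 3 and 11.

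Loss of Peril was compared within each tissue. In mESC, 0 of the 48 tested histone genes passed the edgeR test, where 6.86% of all genes did. At an unadjusted p under 0.05 there were 5 (21.2% of all genes), and DESeq2 called 0. Hist1h2bc came nearest, at 6.4, 7.09 and 6.64 TPM in WT and 4.93, 4.07 and 5.3 TPM in KO. Its groups did not overlap, and its log2 fold change was -0.53 ± 0.19 (adjusted p = 0.103). When mESC were fitted without the tissues, which tested 15 members, Hist1h2bc passed (-0.49, adjusted p = 0.0264), as did Hist1h1a (-1.06, adjusted p = 0.0476). Hist1h2bc also passed in the fit of all tissues without GE/OB KO 2 (adjusted p = 0.0365) or GE/OB KO 7 (adjusted p = 0.0376), and without the other libraries it did not.

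Hist1h1a, an H1 gene, was at 1.89, 1.46 and 1.06 TPM in WT mESC and 0.68, 0.47 and 0.87 TPM in KO (-1.12 ± 0.47, adjusted p = 0.179). The other 3 with an unadjusted p under 0.05 were Hist1h4d (-1.24 ± 0.46, adjusted p = 0.120), Hist1h2bl (-2.66 ± 1.11, adjusted p = 0.178) and Hist2h3c2 (2.54 ± 1.19, adjusted p = 0.233), whose groups overlapped. TPM of WT and KO did not overlap for 4 members lower in KO, Hist1h2bc, Hist1h1a, Hist1h1b and Hist1h4b, where 13% of all genes were so, and for 0 higher in KO, where 17.9% were.

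Some class totals in mESC were lower in KO than in WT without overlap, a description with no test. H2B was at 23.59 to 25.29 TPM in WT and 14.16 to 20.85 TPM in KO, H1 at 3.68 to 3.89 and 2.03 to 3.27 TPM, and H4 at 19.59 to 22.49 and 18.33 to 19.01 TPM. H2A and H3 overlapped, and all 68 genes summed to 64.9 to 73.38 TPM in WT and 56.86 to 63.93 TPM in KO. On the other scales H1 and H2B again did not overlap, but H4 did, both in TMM-scaled CPM per kb (8.696 in WT 1 and 8.944 in KO 1) and in CPM (4.249 in WT 1 and 4.602 in KO 1), and the sum of all 68 genes did in CPM (17.89 in WT 1 and 18.79 in KO 3). The lowest H1 and H2B values came from KO 2, the library with the fewest counts. Sums of some marker lists of other cells were also lower in KO. For fibroblasts, which the feeder cells are, 8 genes summed to 3.37 to 4.29 TPM in WT and 1.5 to 2.42 TPM in KO. Of these, 2 passed the test (Col3a1 and Lox, lower in KO), none was at 0 and 7 were under 1 TPM in each genotype. Endothelial genes (6, none at 0 but 4 under 1 TPM) summed to 61.35 to 62.11 TPM in WT and 53.79 to 58.88 TPM in KO, with Cldn5 lower and Kdr higher in KO. Macrophage genes (6, of which 5 were under 1 TPM and 3 at 0 in each genotype) summed to 25.73 to 28.83 and 21.38 to 23.88 TPM. Few genes therefore made up the endothelial and macrophage sums. Red cell genes (1.1 to 1.55 and 0.89 to 2.31 TPM) and skeletal muscle genes overlapped, and liver genes were higher in KO (0.06 and 0.14 to 0.15 TPM). Their part in the result was not tested.

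In kidney, 0 of 48 histone genes passed (0.223% of all genes), 1 had an unadjusted p under 0.05 (7.6% of all genes) and DESeq2 called 0. That gene, Hist1h2ab, named after its values were seen, was at 2.44, 2.15 and 1.47 TPM in WT and 0.51, 0.0 and 1.18 TPM in KO (-1.89 ± 0.71, adjusted p = 0.528). Groups did not overlap for 5 members lower in KO (2.16% of all genes), Hist1h2ab, Hist1h2bk, Hist1h2bl, Hist1h3h and Hist1h4m, and for 2 higher (14.2% of all genes), Hist1h1d and Hist1h3g. The class totals overlapped between genotypes.

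In GE/OB, 0 of 48 passed (0.063% of all genes), 1 had an unadjusted p under 0.05 (3.01% of all genes) and DESeq2 called 0. The gene was Hist1h1a, with 0 counts in both WT libraries and 1 and 5 in the KO libraries. Groups did not overlap for 2 members lower in KO (8.81% of all genes), Hist1h1d and Hist1h2bk, and for 5 higher (20.1% of all genes), Hist1h1a, Hist1h1b, Hist1h2bg, Hist1h4b and Hist1h4d. Hist1h1b, Hist1h1d, Hist1h2bg and Hist1h4m were named after their values were seen.

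Of the genes that led the tissue totals, Hist3h2ba, Hist3h2a and Hist1h4i did not pass the KO test in any tissue. On the log2 scale, Hist3h2ba differed by 0.33 ± 0.61 in mESC, -0.22 ± 0.16 in kidney and -0.10 ± 0.18 in GE/OB. Hist3h2a differed by 0.18 ± 0.23, -0.05 ± 0.10 and -0.07 ± 0.11, and Hist1h4i by 0.03 ± 0.24, 0.09 ± 0.19 and 0.16 ± 0.27. An error of 0.10 leaves room for a small change. Hist3h2ba and Hist3h2a were scarce in mESC, where the genes next to Hist1h4i in level were Hist1h2bc, described above, and Hist1h2bk, which differed by -0.38 ± 0.25 (adjusted p = 0.419). Below 0 were 24 of 48 members in mESC (55.7% of all genes), 29 in kidney (50%) and 27 in GE/OB (41.2%).

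**Figure D5:**
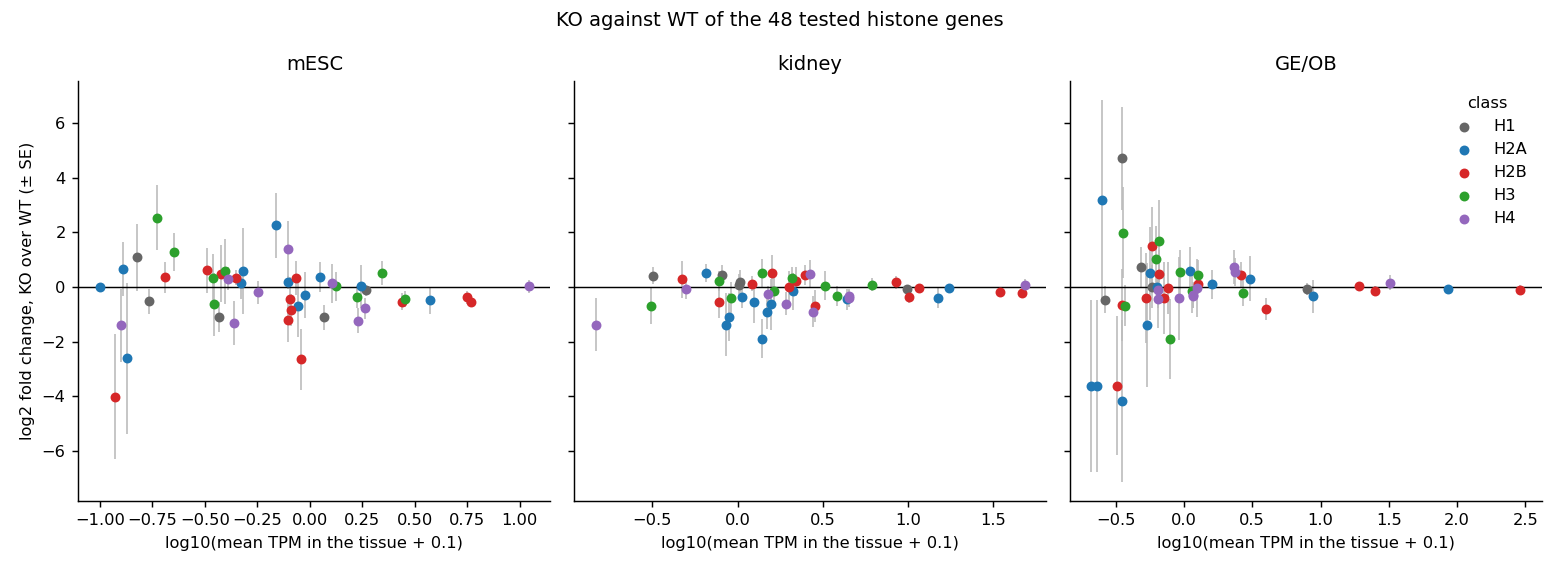
KO over WT (log2 fold change, TMM scale, bars are ± SE) of the 48 tested histone genes against their mean level in the tissue, coloured by class. Hist1h4i, the highest in mESC and kidney, lies near 0, Hist1h2bc, next to it in mESC, lies at -0.53, and the wide bars belong to genes of low level (median SE 0.604 in mESC, 0.401 in kidney and 0.799 in GE/OB).

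The KO effect did not pass a test of its difference between tissues for any of the 48 members: 0 passed between mESC and kidney (2.24% of all genes), 0 between mESC and GE/OB (1.08%) and 0 between kidney and GE/OB (0.0344%). DESeq2 called 0 members in each. Of the genes of S phase, Pola1, a subunit of DNA polymerase alpha, fell in KO mESC (-0.28 ± 0.07, adjusted p = 0.0315), and 0 of the 27 passed in kidney or GE/OB. None of the 22 processing genes, the 11 replication-independent histone genes or the 17 chaperones passed in a KO comparison.

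The spread of histone genes between replicate libraries was set beside that of all genes. Among members with a group mean of at least 1 TPM, the median coefficient of variation was 26.5% in WT and 25.9% in KO mESC, 25.7% and 24.6% in kidney, and 14.2% and 33.8% in GE/OB. For all genes in the same TPM range it was 7.5%, 10.5%, 9.7%, 7.0%, 6.0% and 7.7%. Most members sit at the low end of that range and levels were not matched within it, so the 2 sets differ in level as well. The median SE of a KO difference was 0.604 for the members and 0.106 for all genes in mESC, 0.401 and 0.105 in kidney, and 0.799 and 0.131 in GE/OB. Histone mRNAs are short and collect few counts for their TPM, and the part of length was not tested.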

How the data were processed

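RNA was extracted with TRIzol, poly(A)-selected and sequenced as paired ends. Per the study's methods, the authors mapped reads with bowtie2 and estimated abundance with RSEM on mm10; versions are not given in the sources used here. The deposited tables hold RSEM expected counts and TPM per gene, as the authors made them; the Hi-C and reporter data were not used. Expected counts were rounded and tested with edgeR 4.0.16 (R 4.3.3; TMM, filterByExpr, quasi-likelihood test, all 16 libraries and 6 groups in 1 fit, adjusted p under 0.05), and DESeq2 1.42.0 was an alternative, beside other size factors, filters, a sex term, a replicate block, single tissues and single libraries left out. TPM was summed by class, with no test. The fits were tested on simulated data, where the share of false calls in each KO comparison was above the nominal level, so that adjusted p-values near the threshold are optimistic.

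Named genes were the 3 highest members of each class, called members of KO comparisons (of the other lists, up to 4), the 3 largest tissue differences in each direction, called interactions, and the extremes of variation. Members and lists were chosen with earlier results of these data known. A list of 11 non-polyadenylated RNAs matched 0 symbols. Counting intervals cover counting error only.

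Marker lists of other cells gave these summed TPM ranges. Endothelial genes (6), both genotypes pooled, were at 53.79 to 62.11 in mESC, 85.79 to 145.6 in kidney and 69.69 to 80.87 in GE/OB. Macrophage genes (6) were at 21.38 to 28.83, 24.25 to 38.02 and 32.53 to 40.75. Skeletal muscle genes (6) were at 0.21 to 0.49, 5.78 to 27.63 and 1.04 to 2.21, and liver genes (6) at 0.06 to 0.15, 1.98 to 15.03 and 0.70 to 3.04.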

Additional observations from a re-analysis of the deposited data

How the results depend on the processing

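Of the counts of called histone genes, 214 alternative values stayed within 1.5 times the value given. The exceptions were mESC KO against WT, with 2 genes when each tissue was fitted on its own and 0 to 1 when single libraries were left out, and a filter of 1 CPM in 2 libraries, which left 17 members to test and 16 (mESC against kidney), 14 (mESC against GE/OB) and 15 (kidney against GE/OB) called. Named genes kept their direction in all 1322 alternative values, and 23 lost the call, mostly Hist1h2ag between mESC and GE/OB. The mESC wells share only a number (correlations of deviations 0.006, 0.016 and 0.045, with 2 of 3 WT wells correlating best with their own number). With the replicate block, 0 members and 914 of all genes were called in mESC, against 1198 without it.

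Ratios of class totals moved with the leading gene and the scale. Without the leading gene, ratios turned for GE/OB over mESC in H1 (0.866) and H3 (1.136), and for GE/OB over kidney in H2A (0.584) and H2B (0.702), and moved to 1.934 (H1), 2.793 (H2A), 3.993 (H2B) and 2.766 (H4) for kidney over mESC, to 1.63 (H2A), 2.802 (H2B) and 1.339 (H4) for GE/OB over mESC, and to 0.448 (H1) and 0.511 (H3) for GE/OB over kidney. With TMM-scaled CPM per kb, GE/OB over mESC became 1.872 (H1), 11.462 (H2B), 0.636 (H3) and 1.463 (H4), and GE/OB over kidney 0.483 (H1), 1.667 (H2A), 1.793 (H2B), 0.293 (H3) and 0.408 (H4). With CPM without length, kidney over mESC became 5.146 (H1), 9.942 (H2A) and 10.385 (H2B), GE/OB over mESC 25.483 (H2A), and GE/OB over kidney 0.522 (H1), 2.563 (H2A) and 1.631 (H2B). The cause was not tested beyond the construction of each alternative.

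Calls over all genes varied more. In mESC KO against WT there were 3561 of 14106 genes when mESC were fitted alone, 596 to 634 without 1 of 5 mESC libraries (KO 1 excepted) and 530 at an adjusted p under 0.01. Kidney gave 10 fitted alone, 72 by DESeq2, 76 on the TPM scale, 20 without KO 10, 77 without WT 1 and 23 at the stricter threshold, and GE/OB 6 fitted alone, 20 by DESeq2, 2 to 7 without single GE/OB libraries, 7 without mESC WT 1 and 4 at the stricter threshold. The interactions ranged from 157 to 702, 67 to 342 and 2 to 17 genes. Depth limits the members: at 271 to 823 counts for 68 genes in mESC, most single genes could not show a small difference.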
